A study of Mus musculus with 8 samples.

Results

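Slc5a12, Muc15, Wt1, Pla2g4a, Ppargc1b and Fam26e are 6 genes that stood high in embryonic stem cells treated with 4-hydroxytamoxifen (4OHT) and belong to none of the 2-cell or stress gene lists drawn up for this study. They were taken by name from a table of 37694 genes, chosen by their rise with 4OHT over DMSO in the deposited values of these 8 libraries. Of all genes, 20597 reached a value of at least 10 in at least 2 libraries and were tested. Every comparison of 4OHT with DMSO below therefore describes the 6 genes and carries no test for them. All 6 passed the minimum, but Muc15, Wt1, Ppargc1b and Fam26e reached 10 only in 4OHT libraries, and no gene of the 6 reached 10 in more than 1 DMSO library.

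The libraries come from 4sUDRB-seq, in which the drug DRB holds RNA polymerase II near promoters, is washed away, and RNA made after the release is tagged with 4-thiouridine (4sU) and purified through biotin. The cells were male mouse embryonic stem cells derived from the inner cell mass of strain 129 blastocysts at 3.5 days post coitum and grown without feeders in serum with LIF, and all carried the conditional Ythdc1_cKO alleles. Ythdc1 encodes a nuclear reader of N6-methyladenosine, and 4OHT serves in such lines to start the deletion. The 4 groups of 2 libraries were 4OHT with 8 min of 4sU, DMSO with 8 min, 4OHT with 0 min and DMSO with 0 min. The 4OHT cells had 1 μg/ml during 4 days and the DMSO cells had the solvent, and all then had 100 μM DRB during 3 h before 1 mM 4sU. By the labels each labelling time used its own embryonic stem cell line, but the column names give both line numbers for both times. The columns could be placed in groups but not matched to single samples, and line and labelling time cannot be told apart. Columns whose name lacks 4OHT were taken as DMSO. The recombinase behind the deletion is not given in the labels, and nothing says whether the 2 libraries of a group came from separate cultures, so a p-value here reflects the spread of these samples alone and that spread may be technical.

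The 8 min libraries held 93.1 M to 133.9 M recovered reads (M, mega) and the 0 min libraries 46.3 M to 61.4 M. The share of the single transcript Gm26917 was 2.67% to 3.92% in the 8 min libraries and 23.2% to 27.7% in those of 0 min. Normalised read counts are the deposited values, which are whole read numbers over a divisor particular to each library. On this scale the middle gene of all those tested changed with 4OHT by a log2 fold of 1.43 at 8 min and 0.28 at 0 min. The 8 min change of each chosen gene is therefore also given relative to the 8 min median. Counts are given again after median-ratio scaling of the libraries ("scaled"). In the scaled fit of the 4 libraries of 8 min the median of all genes was 0.029. Unless stated otherwise, scaled changes, ranks and calls at 8 min come from this fit. Scaled values, means, sums and overlaps of groups come instead from scaling all 8 libraries. Ythdc1 itself had normalised read counts of 2696 and 5168 with 4OHT against 1409 and 2708 with DMSO at 8 min, and 129.0 and 411.6 with 4OHT against 133.5 and 185.0 with DMSO at 0 min. Its log2 fold change at 8 min was 0.93 on the deposited scale (limma, adjusted p = 0.17, and 0.0153 with library number as a replicate block) and −0.51 on the scaled one (adjusted p = 0.00347), so that the direction turned with the scaling. The 8 markers of embryonic stem cells were measured in every group, with summed normalised read counts of 7127 to 11609 with 4OHT and 2926 to 4336 with DMSO at 8 min. After scaling the sums were 2925 to 3045 with 4OHT and 3263 to 3444 with DMSO, so that their order also turned.

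The 6 genes have no common pathway. Slc5a12 encodes a sodium-coupled transporter of lactate and other monocarboxylates known from kidney proximal tubule and intestine, and Muc15 a mucin anchored in the cell membrane. Wt1 encodes a zinc finger transcription factor that is required for kidney and gonad development. Pla2g4a encodes cytosolic phospholipase A2, which frees arachidonic acid from membranes for prostaglandin and leukotriene synthesis. Ppargc1b encodes a coactivator of nuclear receptors that drives mitochondrial genes, and Fam26e, named Calhm5 by RefSeq, is a member of the family of calcium homeostasis modulator (CALHM) large-pore channels.

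In the mouse genome (GRCm38.p6, the mm10 build of the files) 3 of the 6 lie on chromosome 2. Wt1 (gene ID 22431) spans chr2:105126529-105173614, Slc5a12 (241612) chr2:110597299-110649345 and Muc15 (269328) chr2:110721494-110739537. Slc5a12 and Muc15 are 72.149 kb apart, and Muc15 lies wholly inside Ano3, a gene of the anoctamin family at chr2:110655201-110950391 whose nearer end is 5856 bp from Slc5a12. Pla2g4a (18783) spans chr1:149829618-149961290 and Fam26e (103511) chr10:34091352-34096519. Fam26e, on the minus strand, lies inside Trappc3l on the plus strand at chr10:34037597-34109815, a gene related to a subunit of the TRAPP vesicle tethering complex.

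Promoter windows of 250 bases before to 50 after the annotated start were taken from RefSeq (GRCm38.p6) and matched 2 of the 6 genes, Pla2g4a with 2 starts and Calhm5, the entry of Fam26e. They are shown with the starts of Trappc3l and Ano3, because the values of these 2 genes stand beside those of Fam26e and Muc15 below. The windows lie at chr10:34096470-34096769 (minus strand) for Calhm5, chr10:34037347-34037646 (plus strand) for Trappc3l, chr2:110950195-110950494 (minus strand) for the outer start of Ano3, and chr1:149961241-149961540 and chr1:149922390-149922689 (both minus strand) for the outer and inner starts of Pla2g4a. Capitals mark matches to a motif searched on both strands.
Calhm5 (Fam26e) start: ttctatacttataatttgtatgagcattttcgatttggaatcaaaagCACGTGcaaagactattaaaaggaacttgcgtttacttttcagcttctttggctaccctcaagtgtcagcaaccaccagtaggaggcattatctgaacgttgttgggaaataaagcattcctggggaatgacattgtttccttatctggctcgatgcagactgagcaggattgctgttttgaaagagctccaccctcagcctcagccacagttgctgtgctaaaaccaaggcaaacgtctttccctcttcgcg
Trappc3l start: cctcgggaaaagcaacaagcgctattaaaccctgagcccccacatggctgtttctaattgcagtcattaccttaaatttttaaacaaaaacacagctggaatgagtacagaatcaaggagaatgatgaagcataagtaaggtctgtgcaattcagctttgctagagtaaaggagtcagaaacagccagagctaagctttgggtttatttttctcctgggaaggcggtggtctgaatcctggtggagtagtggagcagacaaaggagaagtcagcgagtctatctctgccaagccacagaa
Ano3 outer start: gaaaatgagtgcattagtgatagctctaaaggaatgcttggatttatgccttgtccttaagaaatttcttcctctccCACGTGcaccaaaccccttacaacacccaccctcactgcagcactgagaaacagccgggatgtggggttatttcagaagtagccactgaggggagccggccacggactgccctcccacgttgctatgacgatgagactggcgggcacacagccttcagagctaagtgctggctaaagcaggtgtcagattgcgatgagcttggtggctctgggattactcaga
Pla2g4a outer start: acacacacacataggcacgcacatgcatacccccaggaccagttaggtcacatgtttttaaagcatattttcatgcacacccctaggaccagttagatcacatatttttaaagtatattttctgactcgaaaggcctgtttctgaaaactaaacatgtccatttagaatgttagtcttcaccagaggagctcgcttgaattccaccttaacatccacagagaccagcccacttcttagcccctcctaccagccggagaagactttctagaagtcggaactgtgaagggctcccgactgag
Pla2g4a inner start: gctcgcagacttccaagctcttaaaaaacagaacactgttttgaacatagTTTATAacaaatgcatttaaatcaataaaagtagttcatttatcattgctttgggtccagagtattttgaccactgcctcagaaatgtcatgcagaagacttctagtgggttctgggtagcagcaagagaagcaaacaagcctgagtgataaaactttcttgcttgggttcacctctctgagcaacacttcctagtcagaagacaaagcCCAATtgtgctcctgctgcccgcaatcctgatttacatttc
The motifs were TATAAA (in 13.6% of 32851 promoter windows), CCAAT (37.4%), GGGCGG (35.7%), the Dux motif (0.207%), TGATGNAA of C/EBP-ATF (3.97%), TGACGTCA of CRE (1.79%), TCAAGGTCA of Esrrb (0.423%) and the E-box CACGTG (7.15%). No 2 matches printed here overlap. The Calhm5 window holds CACGTG with its first base at −203, counted with the start as 0, and the outer Ano3 window holds CACGTG at −173. The inner Pla2g4a window holds the reverse complement of TATAAA at −200 and CCAAT at 9, while the outer Pla2g4a window and the Trappc3l window hold no match. These matches describe letters only.

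Slc5a12 had normalised read counts of 93.3 and 263.6 in the 4OHT libraries, against 3.87 and 6.42 in the DMSO libraries at 8 min. The 0 min values were 3.84 and 62.1 with 4OHT, against 2.68 and 12.7 with DMSO. The 8 min groups lay far apart, while at 0 min the groups overlapped and 1 of the 4OHT libraries stood above the other 3. The 8 min change was 4.72 on the log2(value + 1) scale, 3.28 above the median of all genes and rank 3 of 20597 by size, and 3.38 after scaling (rank 4 of 19944). The 0 min change was 1.30 (rank 393), and without the higher 4OHT library it was −0.56. In a bulk library fewer cells expressing a gene and less of its RNA per cell cannot be told apart, here and for the other genes.

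Muc15 had few reads in every library. It had 6.90 and 11.6 normalised reads with 4OHT against 0.407 and 0 with DMSO at 8 min, which were 78 and 94 reads against 12 and 0. At 0 min it had 1.36 and 12.3 with 4OHT against 0 and 0.136 with DMSO, which were 32 and 153 reads against 0 and 2. Neither time had an overlap between the groups. Its change was 3.07 at 8 min (relative 1.64, rank 171) and 2.4 at 0 min (rank 3). On the scaled values the 4OHT mean was 2.94 ± 0.15 at 8 min and 8.98 ± 8.47 at 0 min (SD, n = 2 each).

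Wt1 had close values in both 4OHT libraries of 8 min, with 90.5 and 87.2 normalised reads with 4OHT against 6.58 and 5.08 with DMSO. In the 0 min libraries it had 6.48 and 16.1 with 4OHT against 2.18 and 2.17 with DMSO. Groups did not overlap at either time, on the deposited or the scaled values. The change was 3.73 at 8 min, 2.29 above the median of all genes (rank 39), and 1.84 at 0 min (rank 55). After scaling, the 8 min change was 2.37 (rank 59 of 19944), and the scaled mean was 30.0 ± 10.1 with 4OHT against 5.78 ± 2.77 with DMSO (SD, n = 2 each).

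Fam26e lay above DMSO at 8 min and below it at 0 min. At 8 min it had 28.9 and 38.0 normalised reads with 4OHT, against 2.37 and 1.60 with DMSO. At 0 min neither 4OHT library held a read, against 28 and 24 reads with DMSO, whose normalised read counts were 1.17 and 1.63. With a floor of 3 reads per library in place of 0, the 0 min level was 7.57-fold lower with 4OHT. This ratio depends on the floor chosen and is not a firm lower bound, since reads may share a molecule. The 8 min change was 3.53 (relative 2.09, rank 63), and 2.30 after scaling (rank 73 of 19944). Both 4OHT libraries lay below both DMSO libraries at 0 min in 3.53% of all genes.

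Pla2g4a had 20.4 and 52.1 normalised reads with 4OHT against 8.14 and 14.2 with DMSO at 8 min, a change of 1.52. That was 0.083 above the median of all genes and rank 8812 of 20597. After scaling the groups overlapped, with 8.35 and 13.7 with 4OHT against 9.58 and 10.7 with DMSO. Pla2g4a stood out at 0 min, where it had 3.33 and 14.5 normalised reads with 4OHT against 1.09 and 0.271 with DMSO. That change was 2.33 (rank 7), from 78 and 180 reads with 4OHT against 26 and 4 with DMSO. The 8 min change also varied with the library, at 0.86 without the higher 4OHT library and 2.17 without the lower one.

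Ppargc1b (gene ID 170826, chr18:61291445-61400756) followed the same pattern. At 8 min it had 21.6 and 27.9 normalised reads with 4OHT against 6.92 and 4.41 with DMSO, a change of 1.97 that was 0.53 above the median of all genes (rank 3134). After scaling the groups overlapped, with 8.86 and 7.32 with 4OHT against 8.14 and 3.32 with DMSO. Its 0 min values were 5.63 and 13.2 with 4OHT against 1.72 and 0.407 with DMSO, a change of 2.31 (rank 8), and the groups stayed apart after scaling.

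**Figure D1:**
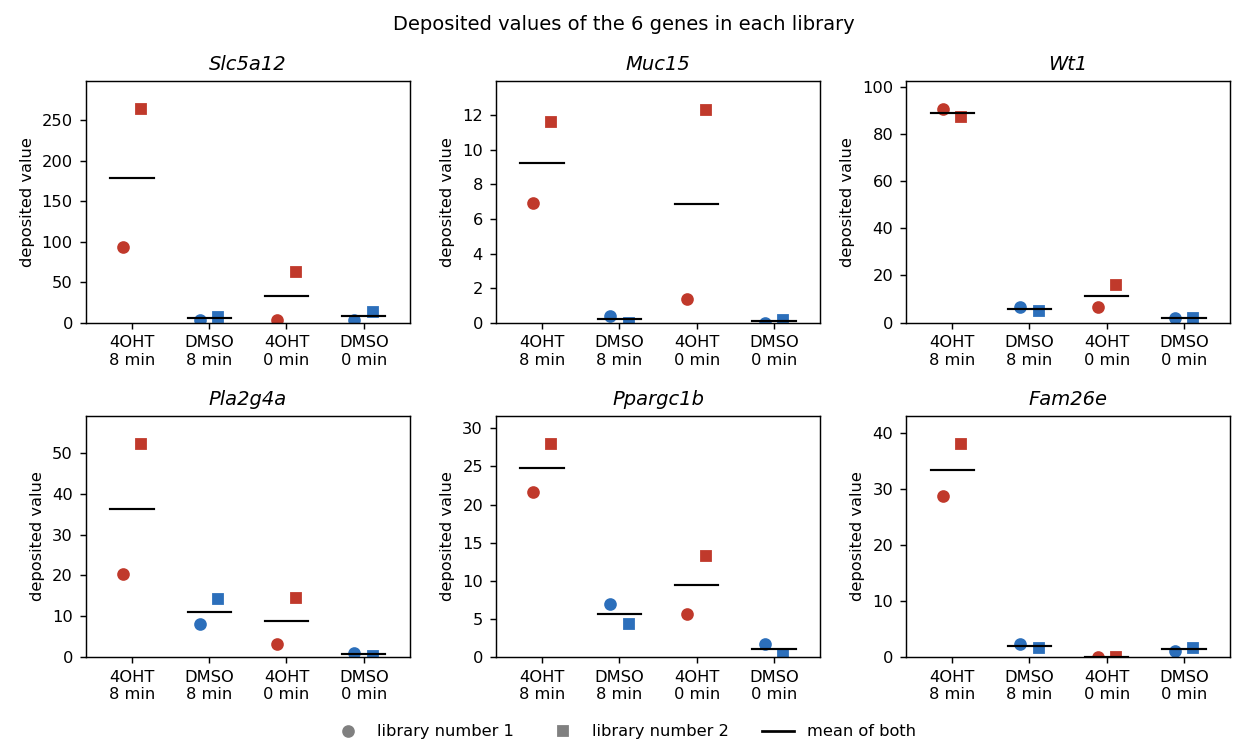
Deposited normalised read counts (linear axes from 0) of the 6 genes in each of the 8 libraries, with 4OHT in red, DMSO in blue, circles and squares for columns numbered 1 and 2, and a line at the mean of both. At 8 min the 4OHT libraries of Wt1 sit at 90.5 and 87.2 against 6.58 and 5.08 with DMSO, and Fam26e is at 0 in both 4OHT libraries of 0 min.

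**Figure D2:**
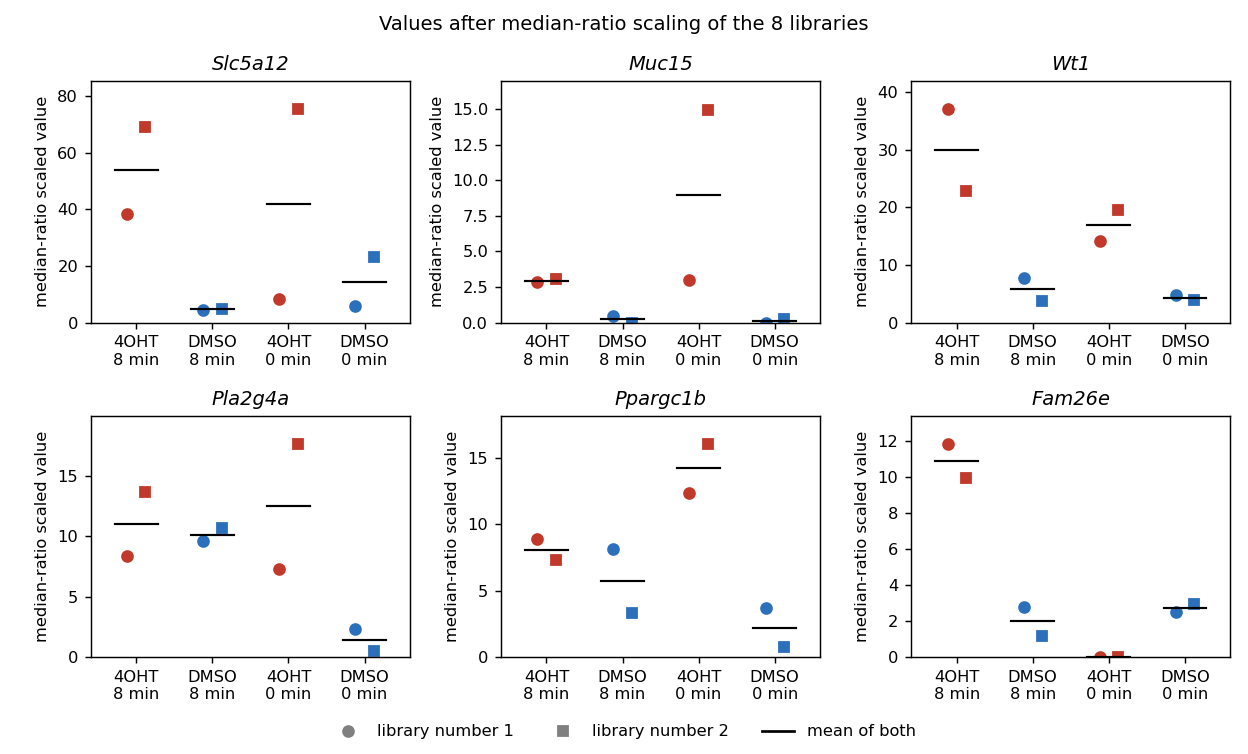
The same libraries after median-ratio scaling, with symbols as in the plot of deposited values. Slc5a12, Muc15, Wt1 and Fam26e keep both 4OHT libraries above both DMSO libraries at 8 min, whereas Pla2g4a (8.35 and 13.7 against 9.58 and 10.7) and Ppargc1b (8.86 and 7.32 against 8.14 and 3.32) overlap there.

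Counted together, both 4OHT libraries lay above both DMSO libraries at 8 min in 6 of the 6 genes on the deposited values, as they did in 90.3% of all genes tested. After scaling this held for 4 of the 6 (30.2% of all genes). At 0 min it held for 4 of the 6 on deposited values (15.4% of all genes) and for the same 4, Muc15, Wt1, Pla2g4a and Ppargc1b, after scaling (10.3%). These contrasts chose the genes, so nothing is read from the counts. The call rule of adjusted p under 0.05 called 58.8% of all genes higher and 0.131% of them lower at 8 min with 4OHT, using deposited values, and 20.4% higher and 15.4% lower on scaled ones. At 0 min limma called 0 of 20597 genes in either direction and edgeR also 0, with 493 genes higher and 55 lower at an unadjusted p under 0.05.

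**Figure D3:**
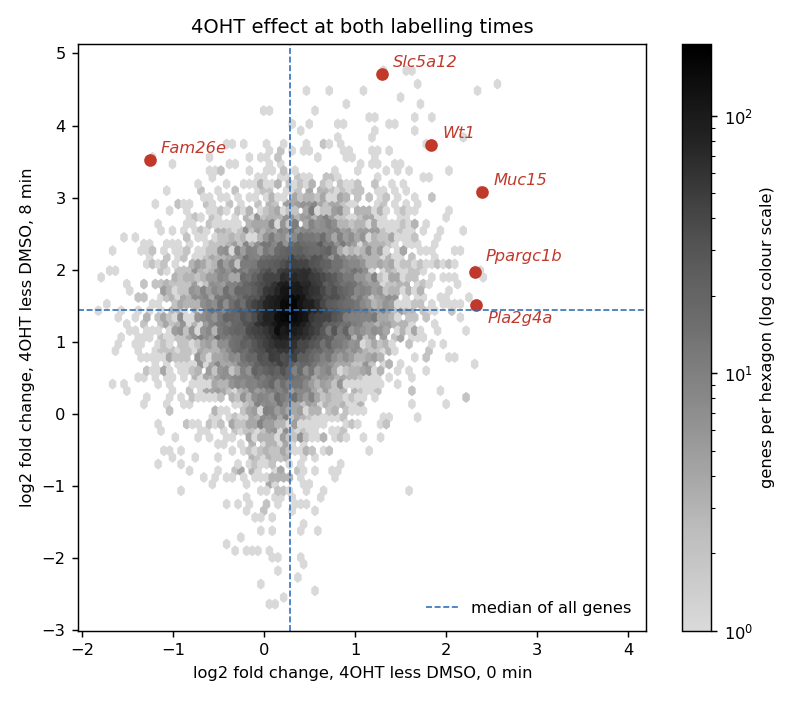
Log2 fold change of 4OHT over DMSO at 8 min (y axis) and 0 min (x axis) for the 20597 genes tested, as grey hexagons shaded by gene number on a log scale, with the 6 genes in red and dashed lines at the medians of all genes (1.43 and 0.28). Slc5a12, Wt1, Muc15 and Fam26e lie high on the 8 min axis. Muc15, Pla2g4a and Ppargc1b lie far right on the 0 min axis, Pla2g4a and Ppargc1b near the 8 min median, and Fam26e lies left at −1.26.

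The order of the 4 group means differed among the genes. For Slc5a12 the 8 min 4OHT mean was highest on both scales, but after scaling the 4OHT libraries of 8 min (38.3 and 69.1) lay within the span of the 4OHT libraries of 0 min (8.42 and 75.4). For Wt1 the scaled order ran from 4OHT at 8 min and 4OHT at 0 min to DMSO at 8 min and DMSO at 0 min, and the 2 DMSO groups overlapped. The 4OHT groups of Wt1 did not, with 37.1 and 22.9 at 8 min against 14.2 and 19.6 at 0 min. Muc15, Pla2g4a and Ppargc1b had their highest scaled mean with 4OHT at 0 min, where Ppargc1b had 12.3 and 16.1 against 8.86 and 7.32 with 4OHT at 8 min. For Pla2g4a the 3 groups other than DMSO at 0 min overlapped. For Fam26e, 4OHT at 8 min was highest (11.8 and 9.98) and 4OHT at 0 min lowest (0 and 0).

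The change with labelling time in the DMSO cells compares RNA after 8 min of 4sU with RNA at 0 min. Line and labelling time cannot be told apart, so a gain after release from DRB cannot be read from it alone. The DMSO values also entered the choice of the 6 genes, since a low DMSO value at a given time raises the change with 4OHT at that time, so the change with labelling time is a description and was not tested for them. Of all genes limma called 47% higher and 1.96% lower at 8 min, with a median log2 change of 1.25. Pla2g4a had 8.14 and 14.2 normalised reads at 8 min against 1.09 and 0.271 at 0 min (log2 fold change 2.85 ± 0.64, SE, n = 2 each), 1.61 above the median of all genes. After scaling of all 8 libraries its change was 2.31. Both of its 8 min libraries thus lay above both of 0 min. The share of all genes in this order is not given here.

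Ppargc1b had 6.92 and 4.41 normalised reads at 8 min against 1.72 and 0.407 at 0 min, with a log2 fold change of 1.74 ± 0.65 (SE) on deposited values and 1.13 on scaled ones. For Wt1 the estimate was 1.10 ± 0.64 (SE), below the median of all genes, with 6.58 and 5.08 at 8 min against 2.18 and 2.17 at 0 min. For Slc5a12, Muc15 and Fam26e the estimates were −0.24, 0.15 and 0.31, each below the median of all genes. All 3 had fewer than 10 normalised reads in both DMSO libraries of 8 min, and their standard errors were 0.63, 0.65 and 0.65.

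Genes next to the 6 were not named in the choice and were tested at 8 min with all genes. Those that overlap one of the 6 may share its reads, above all Trappc3l with Fam26e, so their calls may not be independent of the choice. Some neighbours, Trappc3l among them, reached 10 only in 4OHT libraries and so were tested only because they were high there. The counts below include them. Within 250 kb of any of the 6, 23 genes were tested, of which 18 were called higher with 4OHT on deposited values (58.8% of all genes), and 5 higher and 3 lower on scaled values (20.4% and 15.4% of all genes). Within 100 kb, 10 were tested, and 4 were higher and 0 lower on scaled values, namely Ano3, Wt1os, Trappc3l and Dse, against the same 20.4% and 15.4%. The fifth, Tspyl4 at more than 100 kb from Fam26e, was chosen after its values were seen and had 99.8 and 146.0 normalised reads with 4OHT against 25.5 and 36.8 with DMSO at 8 min. The 3 lower ones, Rcn1 (−0.73), Pdgfrb (−1.02) and Bvht (−0.71), also lay more than 100 kb away and were likewise named after their values were seen.

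Ano3, which spans Muc15, had 1244 and 2382 normalised reads with 4OHT against 255.9 and 418.0 with DMSO at 8 min. The groups lay apart, and Ano3 rose by 2.39 ± 0.58 on deposited values (SE, n = 2 each, limma adjusted p = 0.00125) and by 0.95 ± 0.11 on scaled ones (adjusted p = 6.31e-07). It also rose with labelling time in DMSO cells, where it had 255.9 and 418.0 at 8 min against 6.28 and 15.7 at 0 min (4.89 ± 0.58, SE, adjusted p = 5.67e-15). It had 12.03 and 123.3 at 0 min with 4OHT against 6.28 and 15.7 with DMSO, and these groups overlapped. On the other side of Slc5a12 the nearest gene in the table, Fibin, had at most 1.42 normalised reads in any library and was not tested. Muc15 had its highest 0 min value in the same 4OHT library as Ano3. Muc15 was a small part of the reads within the span of Ano3, at 78 and 94 reads with 4OHT against 14052 and 19286 for Ano3 in the same 8 min libraries.

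Wt1os, a long noncoding RNA read from the minus strand, has its start 19 bp from the lower end of Wt1. It had 67.6 and 94.9 normalised reads with 4OHT against 9.97 and 10.8 with DMSO at 8 min, so both genes of the pair were high in both 4OHT libraries. Wt1os rose by 2.83 ± 0.64 (SE, adjusted p = 0.000475) on deposited and by 1.45 ± 0.24 (adjusted p = 6.2e-05) on scaled values. Its 0 min values were 2.47 and 12.4 with 4OHT against 0.502 and 7.86 with DMSO, and these overlapped. Them7, 50.728 kb away on the other side of Wt1, did not pass on the scaled values (0.19 ± 0.34, SE, adjusted p = 0.708), and it had 19.3 and 22.5 normalised reads with 4OHT against 3.87 and 11.4 with DMSO at 8 min.

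Trappc3l, which spans Fam26e, had 33.4 and 53.9 normalised reads with 4OHT against 4.00 and 4.95 with DMSO at 8 min. It rose by 2.99 ± 0.64 (SE, adjusted p = 0.000243) on deposited and by 1.68 ± 0.30 (adjusted p = 0.000136) on scaled values. Its read numbers were close to those of Fam26e, with 377 and 436 reads for Trappc3l against 326 and 308 for Fam26e in the 4OHT libraries of 8 min. With the Fam26e values taken off, Trappc3l had 4.51 and 15.8 normalised reads with 4OHT against 1.63 and 3.34 with DMSO at 8 min. Elsewhere in the table, clearly longer genes that enclose another were compared with it, among enclosed genes with a mean of at least 100. The enclosing gene had at least as many reads in all 8 libraries in 19 of 20 pairs on the same strand. This held in 21 of 27 pairs on opposite strands and in 193 of 217 pairs of unknown strand. Whether a read was counted for both genes, and on which strand, is not stated, so the values of Fam26e and Trappc3l, and of Muc15 and Ano3, may share reads.

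Dse, encoding an epimerase of dermatan sulfate and 54.87 kb from Fam26e, rose by 1.95 ± 0.58 (SE, adjusted p = 0.00674) and on scaled values by 0.52 ± 0.13 (adjusted p = 0.00413). It had 241.1 and 404.2 normalised reads with 4OHT against 58.7 and 109.0 with DMSO at 8 min. On the other side Rwdd1, 71.736 kb away, did not pass on scaled values (0.13 ± 0.12, SE, adjusted p = 0.411). Fam26d and Fam26f, CALHM relatives beside Fam26e, had at most 1.24 normalised reads in any 8 min library and were not tested. At 0 min Fam26d had 0.341 and 3.55 with 4OHT against 0 and 0 with DMSO. Fam26f had 0.171 and 2.42 with 4OHT against 0.920 and 0 with DMSO at 0 min.

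Next to Ppargc1b, none of the 4 genes tested within 100 kb passed on scaled values, which ran from −0.067 to 0.11. Pde6a, the nearest at 1.695 kb, had 332.8 and 644.4 normalised reads with 4OHT against 147.6 and 215.4 with DMSO at 8 min, a scaled change of −0.067 ± 0.12 (SE, adjusted p = 0.709). Nearly all reads of Pde6a equalled in number those of Rps2-ps10, a pseudogene inside it, with 3740 of 3760 reads in the first 4OHT library of 8 min. Arhgef37, the nearest tested gene on the other side at 90.901 kb, had 38.9 and 45.2 normalised reads with 4OHT against 13.0 and 15.6 with DMSO at 8 min.

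No gene within 250 kb of Pla2g4a passed the minimum. The nearest in the table, the noncoding Ptgs2os at 113.58 kb, had 9.56 and 21.7 normalised reads with 4OHT against 3.39 and 8.69 with DMSO at 8 min. Ptgs2, the inducible cyclooxygenase that uses the arachidonic acid freed by phospholipase A2, lies 138.74 kb away and had 3.36 and 9.39 normalised reads with 4OHT against 1.97 and 3.88 with DMSO at 8 min. These Ptgs2 groups overlapped. After scaling the 8 min means were lower with 4OHT, at 4.81 against 5.27 for Ptgs2os and 1.92 against 2.62 for Ptgs2. The scaled groups of both genes overlapped.

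Without the second 4OHT library of 8 min the calls of Ano3, Wt1os and Trappc3l on deposited values were lost, with adjusted p of 0.187, 0.127 and 0.127. With no filter on low values the call of Ano3 was lost as well (adjusted p = 0.0608). Without the first DMSO library of 8 min they were 0.129, 0.0572 and 0.0471. With all 8 libraries scaled they were 0.683, 0.597 and 0.349, in a fit that called 2 genes higher in all, and with spike-in scaling all 3 were 1.

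Lists of related genes, without the 6 themselves, were counted at 8 min against the background of 58.8% higher on deposited values and of 20.4% higher and 15.4% lower on scaled ones. The medians of all genes were 1.43 and 0.029 on these scales. Slc5a9 and Anxa1 reached the minimum only in the 4OHT libraries of 8 min, so they were tested only because they were high there. The list counts include them, and such genes may raise the numbers called higher. Whether other genes of the lists passed in the same way is not given here. Among SLC5 and other monocarboxylate transporters 6 of 11 tested were higher on deposited values (median 1.81). On scaled values 4 were higher, Slc5a9 (1.29), Slc5a1 (0.89), Slc5a11 (0.51) and Slc5a3 (0.41), and 3 lower, Slc16a3 (−1.10), Slc5a5 (−1.14) and Slc5a4b (−0.68), with a median of 0.38. Slc5a1, the intestinal sodium-glucose transporter, had 44.3 and 60.0 normalised reads with 4OHT against 6.92 and 14.3 with DMSO at 8 min. Slc5a9, a sodium-dependent sugar transporter, had 16.8 and 11.6 with 4OHT against 0.543 and 4.68 with DMSO. After scaling of all 8 libraries its groups overlapped, with 6.90 and 3.05 with 4OHT against 0.639 and 3.52 with DMSO. Its scaled call lay near the threshold (limma, adjusted p = 0.0484). Nothing is read from this call, since Slc5a9 could be tested only through its 4OHT libraries.

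Of the 4 other mucins tested, limma called 0 on deposited values (median 0.38, smallest unadjusted p = 0.103), and on scaled values 0 were higher and 2 lower, Muc13 (−1.21) and Emcn (−1.0). Muc19 had 15.6 and 63.7 normalised reads with 4OHT against 12.7 and 17.7 with DMSO at 8 min. Muc5b had 1.59 and 6.67 with 4OHT against 1.56 and 2.94 with DMSO. These values overlapped between the groups.

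Of 15 genes tested among Wt1 partners and regulators of kidney and gonad, 11 were higher on deposited values (median 1.54), and on scaled values Wt1os was among those higher (1.45) and 3 were lower, Nr0b1 (−1.79), Podxl (−0.42) and Sall1 (−0.30), with a median of 0.14. Wnt4, a signal of the gonad and kidney, had 13.8 and 41.5 normalised reads with 4OHT against 5.02 and 5.35 with DMSO at 8 min, and its scaled change did not pass (0.70 ± 0.35, SE, adjusted p = 0.124). Podxl is a surface protein of podocytes and of pluripotent cells, and Nr0b1 a nuclear receptor that stem cells express.

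Of 17 phospholipase A2 and eicosanoid genes tested, 9 were higher on deposited values (median 1.44). On scaled values 2 were higher, Anxa1 (1.46) and Alox5 (0.68), and 2 lower, Tbxas1 (−1.73) and Pla2g5 (−1.11), and the median was 0.013. Anxa1, a phospholipid-binding annexin known to restrain phospholipase A2, had 26.7 and 39.0 normalised reads with 4OHT against 2.44 and 6.28 with DMSO at 8 min. Only these 4OHT libraries reached the minimum, so the call of Anxa1 was close to fixed in advance and nothing is read from it. Alox5, the lipoxygenase that starts leukotriene synthesis, had 308.7 and 444.7 with 4OHT against 72.3 and 98.8 with DMSO. Ptgis, the prostacyclin synthase, had 95.4 and 154.9 with 4OHT against 30.6 and 36.2 with DMSO and did not pass after scaling (0.42 ± 0.18, SE, adjusted p = 0.0772).

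Of 14 coactivators and partners of the PGC-1 family tested, 8 were higher on deposited values (median 1.34), and on scaled values 3 were higher, Nrip1 (0.98), Ppard (0.68) and Nrf1 (0.41), and 2 lower, Gabpa (−0.44) and Pprc1 (−0.28), with a median of −0.061. Nrip1, a corepressor of nuclear receptors, had 265.0 and 452.1 normalised reads with 4OHT against 60.2 and 68.7 with DMSO at 8 min. Ppard, a fatty acid sensing nuclear receptor, had 293.2 and 415.6 with 4OHT against 63.0 and 100.6 with DMSO. In the CALHM family 1 gene besides Fam26e was tested, Calhm2, which had 201.9 and 272.3 with 4OHT against 44.3 and 71.9 with DMSO at 8 min and was higher on both scales (2.03 ± 0.58 and 0.61 ± 0.15, SE, adjusted p = 0.00512 and 0.0023).

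Markers of other cells that the cultures could hold were summed in each library. The 2-cell-like list had 436.6 to 641.3 normalised reads with 4OHT against 13.6 to 25 with DMSO at 8 min, and 9.94 to 126.8 with 4OHT against 10.9 to 12.6 with DMSO at 0 min. Scaled, its sums at 8 min were 168.2 to 179.1 with 4OHT against 16.0 to 18.8 with DMSO. Of its 13 measured genes 7 were tested, and all 7 were higher on scaled values at 8 min (20.4% of all genes). The whole list summed to about 25 or less in any DMSO library, so its genes could pass the minimum almost only through 4OHT libraries. Their calls were thus close to fixed in advance, and nothing is read from them. Tcstv1, Tcstv3, Tdpoz1 and Tdpoz4 were at 0 in both DMSO libraries of 8 min. These sums moved with the same 4OHT libraries as Slc5a12, Muc15, Wt1 and Fam26e at 8 min, and their part in those values was not tested.

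Other marker lists covered cells that normally express Wt1 or Slc5a12, trophoblast and fibroblasts. Mesothelium and podocyte markers, for cells that express Wt1, had scaled sums of 285.1 to 305.5 with 4OHT against 318.6 to 350.2 with DMSO at 8 min, and 0 of 4 tested genes were higher and 1 lower. Proximal tubule and intestine markers, for cells that express Slc5a12, had scaled sums of 106.0 to 116.6 with 4OHT against 97.3 to 110.5 with DMSO, with 1 of 3 tested genes higher and 1 lower. Trophoblast markers had scaled sums of 51.9 to 65.1 with 4OHT against 78.7 to 86.3 with DMSO, and fibroblast markers 14.8 to 21.8 with 4OHT against 32.0 to 43.2 with DMSO. Of these, 1 of 5 tested trophoblast genes was higher and 3 lower, and 0 of 3 tested fibroblast genes were higher and 2 lower. On deposited values the sums at 8 min for mesothelium and podocyte markers were 694.8 to 1165 with 4OHT against 297.6 to 423.4 with DMSO, and for proximal tubule and intestine markers 284.2 to 404.1 with 4OHT against 82.7 to 146.9 with DMSO. Those for trophoblast markers were 126.4 to 248.1 with 4OHT against 66.9 to 114.7 with DMSO, and those for fibroblast markers 36.1 to 83.3 with 4OHT against 27.2 to 57.4 with DMSO.

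For each of the 6 genes the 3 tested genes of most similar profile over the 8 scaled libraries were named by Pearson's r, as a description over libraries that share 4 groups and 1 scaling. Slc5a12 went with Ankrd12 (r = 0.982), Prmt8 (0.981) and Herc1 (0.979), and Muc15 with Ascc1 (0.979), Calml4 (0.973) and Gm37799 (0.972). For Wt1 they were Lancl1 (0.955), Usp17lb (0.954), which is also on the 2-cell-like list, and Mxd4 (0.946). For Pla2g4a they were Gm12953 (0.970), Gm38342 (0.964) and Ccdc171 (0.963), and for Ppargc1b Gpr146 (0.966), Gm42732 (0.966) and Arhgap24 (0.965). Fam26e went with AC159474.1 (0.987), E230032D23Rik (0.981) and Hic1 (0.976). AC159474.1 had 299 and 300 reads with 4OHT against 68 and 24 with DMSO at 8 min, close to the 326 and 308 with 4OHT against 70 and 24 with DMSO of Fam26e, so the 2 entries may share reads. No gene was named for more than 1 of the 6, and none of the 6 was named for another.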

How the data were processed

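Values came from a single table in which the authors deposited a normalised signal for 38971 entries in 8 libraries. STAR 2.7, Bowtie2, bcl2fastq and mm10 are named per the submitters' processing notes, with no role given, and what the normalisation, strand and multi-mapping rules were is not given in the sources used here. In each library 99.9974% to 100% of the deposited signal values were whole reads, within 0.01, divided by 1 number between 8.095 and 29.49. These reads entered edgeR 4.0.16 (quasi-likelihood) as an alternative, which called 3686 genes higher and 3359 lower with 4OHT at 8 min. The floor of 3 reads may not cover even the counting error, since reads may share a molecule. Most genes with reads had an even number, 74.0% to 77.3% of them at 8 min and 84.6% to 87.8% at 0 min. Names of 27997 of 37694 gene entries matched RefSeq GRCm38.p6.

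Values were analysed as log2(value + 1), with at least 10 in at least 2 of 8 libraries, by limma 3.58.1 in R 4.3.3 (4 group means, trended empirical Bayes, two-sided). Adjusted p-values are Benjamini-Hochberg over all 20597 genes tested, at 0.05. A log2 fold change on this scale understates the change of low genes. Scaled calls at 8 min are from the 4 libraries of that time after median-ratio scaling, over 19944 genes. The fit was tested on simulated data. The 6 genes and all lists were chosen with earlier results of these data known. The test of 8 against 0 min with DMSO was planned for the 6 genes too but is not used for them, since DMSO values entered their choice. Named besides the 6 and Ythdc1 were genes that overlap one of the 6, the nearest tested gene on each side, genes within 100 kb that passed at 8 min, up to 3 genes of smallest p per list (1 such gene is not reported here), and the 3 of highest correlation. Library numbers shared by groups were not taken as pairing the samples, since titles and column names differ on which line a library is from and deviations of same-numbered libraries correlated at 0.0196 to 0.421, all above 0 but not all above 0.1. Whether they pair the samples is not settled. Alternatives were other pseudocounts, filters, scalings, sets of libraries and, added later, spike-in scaling.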

Additional observations from a re-analysis of the deposited data

Results flagged for a closer look

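Fam26e was the 1 result marked for a closer look, because its 2 labelling times moved in opposite ways in every library. At 8 min it had 28.9 and 38.0 normalised reads with 4OHT against 2.37 and 1.60 with DMSO. At 0 min it had 0 and 0 with 4OHT against 1.17 and 1.63 with DMSO. The log2 change with 4OHT at 8 min less that at 0 min was 4.78. Fam26e was chosen for its 4OHT values, so this difference was not tested.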

How the results depend on the processing

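Counts of calls depended on the scale. Genes higher and lower with 4OHT at 8 min (12103 and 27) became 4078 and 3073 with the 4 libraries scaled, 3686 and 3359 with edgeR, 6521 and 57 with no filter, 7682 and 6 with a minimum of 100, 28 and 2 with spike-in scaling, and 2 higher with all 8 libraries scaled. Leaving out 1 library gave 80 to 14298 higher and 3 to 37 lower, with 80 higher without the second 4OHT library of 8 min and 301 without the first DMSO library of 8 min. At 0 min (0 and 0) it gave 0 to 199 higher and 0 to 2 lower, with 199 and 2 without the first 4OHT library. For 8 against 0 min with DMSO (9680 and 403), the counts were 6349 and 4064 with the 4 libraries scaled, 4853 and 4982 with edgeR and 6287 and 129 with a minimum of 100, and the genes lower were 198 with no filter, 4695 with all 8 scaled and 0 with spike-in scaling. Leaving out 1 library gave 5763 to 10301 higher and 60 to 548 lower, with the fewest higher without the second DMSO library of 8 min and the fewest lower without the second DMSO library of 0 min. With library number as a replicate block, the counts were 17041 and 65 for 4OHT at 8 min, 0 and 0 at 0 min, and 11722 and 1111 for 8 against 0 min with DMSO, and Ythdc1 at 8 min passed (0.93, adjusted p = 0.0153).

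Directions turned as follows. Ythdc1 at 8 min (0.93) was −0.59 with all 8 libraries scaled, −0.51 with 4 scaled, −0.54 with edgeR and −0.41 with spike-in scaling, and at 0 min it ran from −0.28 (without the second 4OHT library) to 1.38 when 1 library was left out. Trappc3l at 0 min was −0.19 with all 8 scaled and −0.086 with spike-in scaling, and ran from −0.87 without the second 4OHT library, through −0.56 without the first DMSO library, to 1.06. Wt1os at 0 min ran from −0.38 without the first DMSO library, through −0.071 without the second 4OHT library, to 2.18. With DMSO, 8 against 0 min, Fam26e was −0.37 with all 8 scaled, and Muc15 ran from −0.092 without the first DMSO library of 8 min to 0.40. Slc5a12 was 1.46 with spike-in scaling, and ran from −1.19 through 0.061 (without the first DMSO library of 8 min) to 0.71 (without the second of 0 min). Trappc3l was 1.5 with spike-in scaling, and ran from −0.81 to 0.50 (without the second DMSO library of 0 min). The cause was not tested. For single genes, 375 of the other alternative values were labelled the same, 24 lost and 2 gained a call, and 37 moved. For the untested 4OHT changes of the 6 genes, same and moved compare the shift with the spread between libraries. Their sign was not checked. For all other values the same label means that direction and call were kept. The 0 min change of Slc5a12, above 0 with all libraries, was below 0 without the higher 4OHT library and counts as the same. The 4OHT change of each of the 6 genes at 8 min stayed above 0 in the alternatives that kept the gene, lowest for Pla2g4a at 0.077. These were 12 alternatives for Muc15, 15 for Fam26e and 17 for each of the others. The rise with 4OHT chose the genes, so nothing is read from this. Muc15 and Fam26e had at most 12 and 70 reads in any DMSO library, which limits the precision of their values.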
